A study of Rattus norvegicus with 18 samples.

Results

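A set of 7 nuclear genes of mitochondrial channels, permeability transition and calcium uptake was followed in electrically pulsed H9C2 cells, which descend from the heart of a rat embryo. They are Vdac1, Vdac2, Vdac3, Ppif, Tspo, Mcu and Micu2, taken by gene symbol, and make up 7 of the 32545 genes in the deposited expression table. The 6 groups hold 3 RNA-seq libraries each. ES10 and ES50 cells received 10 and 50 pulses of 100 µs at 1500 V/cm and no compound. P cells spent 48 h in 50 µmol/L PE, a compound the labels name only by these letters, and P_ES10 and P_ES50 cells had the same PE treatment before 10 or 50 pulses. NC cells had no treatment. All groups are the same line, so the replicates are cultures or libraries of 1 line and not animals. Nothing in the labels says that they came from separate cultures, so the tests weigh differences against a library-to-library spread that may be technical only.

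Voltage-dependent anion channels (VDAC) are pores of the mitochondrial outer membrane through which ATP, ADP, other metabolites and calcium pass. TSPO is a cholesterol-binding protein of the same membrane, and PPIF (cyclophilin D) is a matrix protein that promotes opening of the permeability transition pore. Calcium crosses the inner membrane through the uniporter pore MCU, which calcium-sensing gate proteins hold closed at rest. In heart muscle this uptake couples energy supply to contraction, and calcium overload is a known trigger of the permeability transition.

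The labels name myocardium as the cell type. Of 9 cardiomyocyte genes 6 were nearly silent in NC libraries, where Myh6, Myh7, Actn2, Ryr2, Nkx2-5 and Actc1 averaged 0.0253 FPKM (fragments per kilobase of gene, scaled to sequencing depth) or less. The other 3 averaged 12.1 FPKM for Tnnt2, 2.18 for Tnni3 and 1.64 for Pln in NC. In the same libraries the skeletal muscle genes Myod1, Acta1, Des, Myog and Chrna1 averaged 32.0, 9.6, 9.1, 0.951 and 0.217 FPKM. The smooth muscle genes Acta2, Tagln, Cnn1 and Myh11 averaged 1402, 752, 79.1 and 1.57 FPKM. Of the fibroblast genes, Col1a1, Col3a1, Col1a2 and Thy1 averaged 1449, 464, 383 and 113 FPKM, but Dcn and Pdgfra 0.10 and 0.030. The libraries held 14004929 to 17247201 reads on genes. Genes of the mitochondrial genome took 92.1 ± 0.728% of the reads in ES50 and 48.6 ± 1.66% in P_ES50, against 12.9 ± 1.21% in NC and 5.48 ± 0.104% in P (SD, n = 3 each). ES50 libraries therefore held 1230554 to 1466851 reads on nuclear genes, against 7813779 to 14665855 in the other groups. The deposited FPKM hold the median gene about level between libraries, so a rise below means a rise relative to other nuclear genes. Scaling by all reads instead put the median gene at -2.43 (log2) in ES50 versus NC and at -0.77 in P_ES50 versus P, against -0.13 and -0.0073 as deposited. The calls over all genes split accordingly, at 3802 higher and 4781 lower in ES50 versus NC as deposited and 34 and 11471 when scaled to total reads, and at 1679 and 1691 in P_ES50 versus P as deposited and 90 and 10461 when scaled to total reads. In bulk RNA, fewer intact cells and less RNA per cell cannot be told apart. In ES50 the summed FPKM of 6 fibroblast markers was 547 to 574, against 2378 to 2464 in NC, and that of 4 smooth muscle markers was 5420 to 5647, against 2158 to 2349. The sum of the 9 cardiomyocyte markers was 47.6 to 56.7 in ES50, against 15.3 to 17.1 in NC, and that of 5 skeletal muscle markers 88.6 to 101, against 51.1 to 52.9. Over all 18 libraries Tnnt2 reached 47.2 FPKM, Pln 14.8, Tnni3 2.71 and none of the other 6 more than 0.756. The cardiomyocyte sum in ES50 thus rests mostly on Tnnt2 and Pln. Among the skeletal muscle markers Myod1 reached 61.9 FPKM and no other more than 21.5 (Des). In P_ES50 versus P the skeletal muscle sum was 49.5 to 53.6, against 34.4 to 39.6, the cardiomyocyte sum 12.5 to 14.5, against 10.6 to 11.1, and the smooth muscle sum 2761 to 2828, against 2121 to 2218. The part of these marker levels and of the mitochondrial share in the 50-pulse results below was not tested.

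Promoter windows of 4 members were present in the RefSeq table of build GRCr8 and are shown for that reason, while Vdac3, Tspo and Mcu had none. On the deposited scale described below, Vdac1, Vdac2 and Micu2 were called higher and Ppif lower in ES50 versus NC. In P_ES50 versus P, Vdac1 and Vdac2 were called higher, and Micu2 and Ppif were not called. Each window runs from 250 bases before to 50 after the gene start, 5′ to 3′ on the gene's strand: chr10:37032959-37033258 (+) for Vdac1, chr15:2525837-2526136 (-) for Vdac2, chr16:1263751-1264050 (+) for Ppif and chr15:36262362-36262661 (-) for Micu2. Capitals mark matches on either strand to 5 short motifs. They are the GC box with the letters GGGCGG, the box CCAAT, the E-box written as CACGTG, the ETS core with the letters CCGGAAG and the palindrome bound by the factor NRF1. No match overlapped one of another motif.
Vdac1: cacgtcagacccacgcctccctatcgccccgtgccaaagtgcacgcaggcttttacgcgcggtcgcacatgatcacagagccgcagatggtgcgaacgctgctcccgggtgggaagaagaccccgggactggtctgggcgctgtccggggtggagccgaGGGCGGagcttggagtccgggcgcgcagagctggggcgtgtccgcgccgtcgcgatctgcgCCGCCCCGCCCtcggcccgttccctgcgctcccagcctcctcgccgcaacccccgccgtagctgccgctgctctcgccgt
Vdac2: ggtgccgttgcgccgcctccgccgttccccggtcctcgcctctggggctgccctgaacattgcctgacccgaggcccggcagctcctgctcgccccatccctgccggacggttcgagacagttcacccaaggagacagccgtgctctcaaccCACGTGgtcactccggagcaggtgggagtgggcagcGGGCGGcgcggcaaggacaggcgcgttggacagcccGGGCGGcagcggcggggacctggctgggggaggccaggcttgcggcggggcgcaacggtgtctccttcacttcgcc
Ppif: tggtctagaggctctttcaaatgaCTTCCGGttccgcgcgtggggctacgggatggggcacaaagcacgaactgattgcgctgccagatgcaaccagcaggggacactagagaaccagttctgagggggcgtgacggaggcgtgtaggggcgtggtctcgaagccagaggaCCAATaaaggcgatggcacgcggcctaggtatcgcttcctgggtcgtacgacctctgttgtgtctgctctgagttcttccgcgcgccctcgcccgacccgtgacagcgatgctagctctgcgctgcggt
Micu2: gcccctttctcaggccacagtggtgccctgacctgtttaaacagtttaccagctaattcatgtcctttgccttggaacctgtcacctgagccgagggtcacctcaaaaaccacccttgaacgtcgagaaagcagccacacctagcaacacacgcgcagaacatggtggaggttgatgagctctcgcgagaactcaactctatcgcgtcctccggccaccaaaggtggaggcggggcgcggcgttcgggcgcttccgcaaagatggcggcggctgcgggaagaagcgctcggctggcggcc
The Vdac1 window held 3 GC boxes, 2 of them on the opposite strand and sharing a base, and that of Vdac2 held 2 with 1 E-box, in sequence of 72% and 72.3% G and C. The Ppif window held 1 CCAAT box and 1 ETS core and no GC box, at 61.3% G and C, and the Micu2 window held none of the 5 motifs, at 60% G and C. Among all 33469 windows of the table, 33.1% held a GC box, 37.5% CCAAT, 6.42% the E-box, 8.75% the ETS core and 5.58% the NRF1 palindrome, and the median was 51.7% G and C. The matches are a description of letters only.

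The 7 genes span more than an order of magnitude in untreated cells. Mean levels in NC were 49.7 ± 3.09 FPKM for Vdac3, 45.2 ± 2.68 for Tspo, 45.2 ± 1.498 for Vdac2, 31.1 ± 1.90 for Vdac1, 14.8 ± 0.406 for Mcu, 11.7 ± 0.285 for Micu2 and 2.97 ± 0.314 for Ppif (SD, n = 3). The libraries of Vdac3, Tspo and Vdac2 overlapped, while Vdac1, Mcu, Micu2 and Ppif each lay apart from their neighbours. All 7 passed the filter of at least 1 FPKM in at least 3 libraries, which left 11917 genes. Ppif rests on the fewest reads, 97 to 130 per NC library but only 4 to 8 per ES50 library, where 3 reads equal up to 0.913 FPKM. The other 6 had 58 to 355 reads in each ES50 library.

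**Figure D1:**
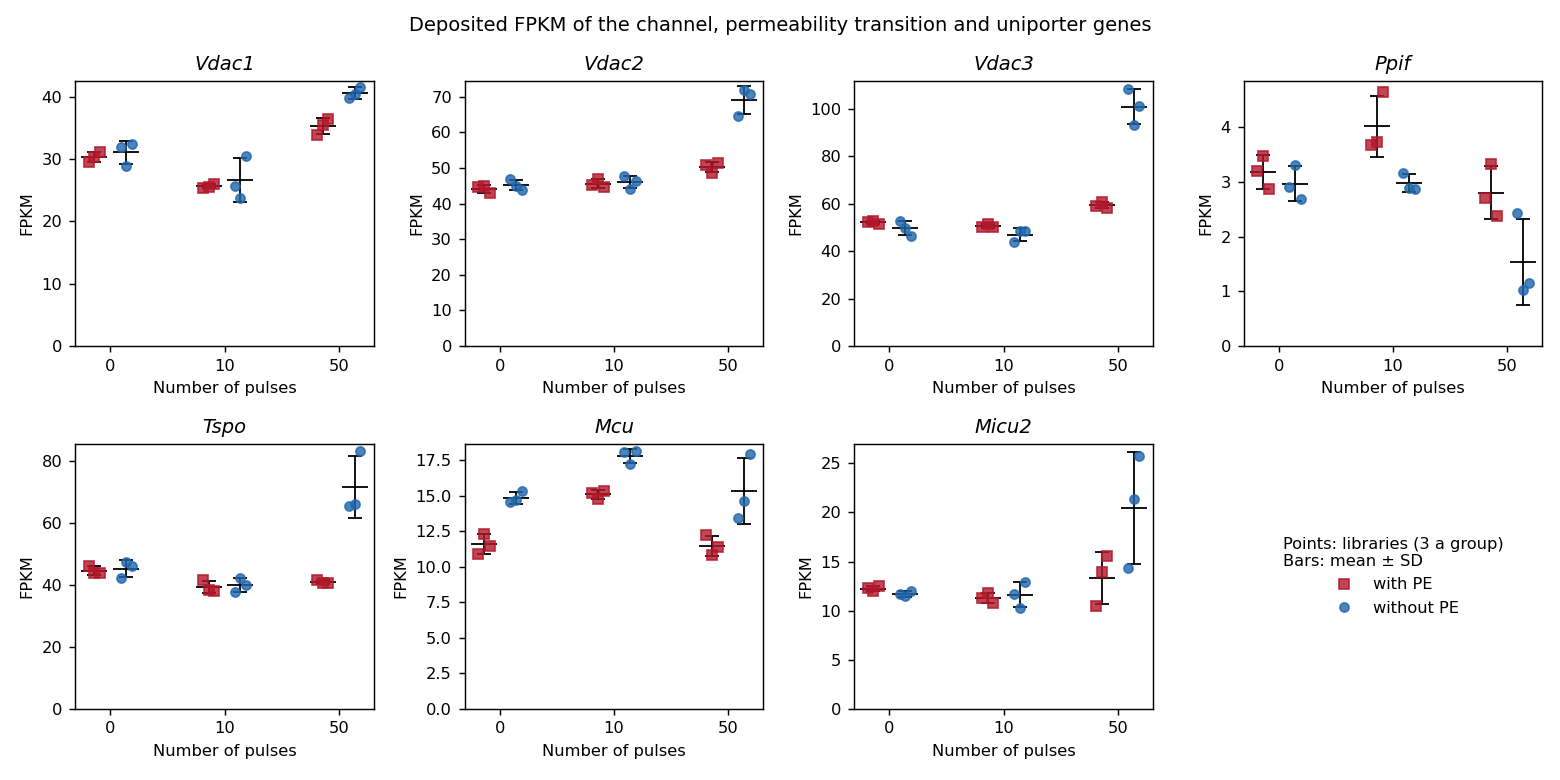
Deposited FPKM of each of the 7 genes against the number of pulses, with PE (squares) and without (circles). Points are libraries and bars are the mean ± SD of 3. Vdac2, Vdac3 and Tspo stand highest after 50 pulses without PE, and Mcu is higher after 10 pulses than after none, with and without PE.

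The 3 VDAC genes, which encode related pores of the outer membrane, were all higher after 50 pulses on the deposited scale, and there the rise was larger without PE for Vdac2 and Vdac3. Vdac3 (ENSRNOG00000019277, chromosome 16, 74292438 to 74308903, build Rnor 6.0) had 108, 93.2 and 101 FPKM in ES50, against 52.7, 49.7 and 46.5 FPKM in NC. All ES50 libraries lay far above all NC libraries. The log2 fold change of FPKM + 1 was 1.01 ± 0.06 (standard error, SE), with a limma adjusted p of 2.65e-10. Vdac2 (ENSRNOG00000013505, chromosome 15, 2634624 to 2648551) had 64.5, 71.7 and 70.6 FPKM in ES50, against 46.8, 44.8 and 43.9 FPKM in NC, again without overlap (0.60 ± 0.05, adjusted p = 1.19e-08). Vdac1 (ENSRNOG00000006375, chromosome 10, 37724915 to 37752826), the isoform best known as the docking site of hexokinase, had the smallest change of the 3, with 39.8, 40.5 and 41.6 FPKM in ES50, against 31.9, 28.9 and 32.4 FPKM in NC (0.38 ± 0.07, adjusted p = 1.69e-04). Scaled to total reads, the changes of Vdac1, Vdac2 and Vdac3 were -2.95, -2.81 and -2.44, so their direction in ES50 depends on the scaling. Of all tested genes 72% were called in ES50 versus NC, 31.9% higher and 40.1% lower, and of the 7 members 5 were higher and 1 lower. The calls were made at an adjusted p under 0.05 in 1 linear model of all 18 libraries. A VDAC-like gene model, LOC688754, averaged 13.1 FPKM in ES50 and 5.36 in NC, on 79 and 331 reads. It may share reads with the VDAC genes, which was not tested.

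After 10 pulses Vdac1 was called lower than in cells without pulses with PE, and without PE under some settings only. Neither Vdac2 nor Vdac3 was called on the deposited scale. Scaled to total reads, Vdac3 was called lower in P_ES10 versus P (-0.14, limma adjusted p = 0.0458). Vdac1 had 25.7, 23.8 and 30.6 FPKM in ES10, against 31.9, 28.9 and 32.4 FPKM in NC, and ES10 replicate 3 lay inside the NC range. The log2 change was -0.22 ± 0.07 with a limma adjusted p of 0.0698, and without ES10 replicate 3 it was -0.32 with an adjusted p of 0.0039. It was also called with each of the 3 other scalings (-0.32 to -0.26), with a replicate block, with voom weights and without the ES50 libraries (limma adjusted p = 0.0109 to 0.0479 over these 6), but not with only the compared groups in the fit (0.152). With PE the groups did not overlap: Vdac1 had 25.4, 25.6 and 26.1 FPKM in P_ES10, against 29.6, 30.4 and 31.2 FPKM in P (-0.23 ± 0.07, limma adjusted p = 0.0249). This call was lost when any single P_ES10 library, or P replicate 2 or 3, was left out, at adjusted p-values of 0.056 to 0.0829 and changes of -0.24 to -0.22. Vdac2 had 47.6, 44.2 and 46.3 FPKM in ES10 and Vdac3 had 43.6, 48.6 and 48.3 FPKM, both overlapping NC, with 95% intervals of the change of -0.07 to 0.13 for Vdac2 and -0.20 to 0.04 for Vdac3. Vdac2 also overlapped between P_ES10, at 45.2, 46.9 and 44.7 FPKM, and P, at 44.7, 44.9 and 42.9 FPKM. In P_ES10 versus P the interval was -0.05 to 0.14 for Vdac2 and -0.17 to 0.08 for Vdac3, although the Vdac3 libraries, at 49.9, 51.4 and 50.1 FPKM in P_ES10 and 52.2, 52.6 and 51.4 FPKM in P, were separated by a narrow margin.

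In PE-treated cells all 3 VDAC genes rose after 50 pulses, by 0.18 to 0.21 (log2) on the deposited scale. Vdac1 had 33.9, 35.5 and 36.4 FPKM in P_ES50, against 29.6, 30.4 and 31.2 FPKM in P (0.21 ± 0.07, limma adjusted p = 0.0364). Vdac2 had 50.9, 48.6 and 51.3 FPKM in P_ES50, against 44.7, 44.9 and 42.9 FPKM in P (0.18 ± 0.05, adjusted p = 0.00805). Vdac3 had 59.0, 60.8 and 58.3 FPKM in P_ES50, against 52.2, 52.6 and 51.4 FPKM in P (0.18 ± 0.06, adjusted p = 0.0242). None of these pairs of groups overlapped, yet the calls were fragile. That of Vdac1 was lost without any single P library or without P_ES50 replicate 2 or 3 (adjusted p = 0.0574 to 0.114), and that of Vdac3 without any single P library or P_ES50 replicate 1 or 2 (0.0526 to 0.0798). Vdac1 was also not called without the filter on low values (0.0573) or with scaling to reads on nuclear genes (0.061). After quantile normalization none of the 3 was called, at 0.15, 0.11 and 0.09, and when scaled to total reads they were at -0.67, -0.70 and -0.70. They were the only members called of 7, against 28.3% of all tested genes called in P_ES50 versus P, 14.1% higher and 14.2% lower. PE alone left the VDAC genes without a call on the deposited scale. The 95% intervals were -0.18 to 0.12 for Vdac1, -0.13 to 0.07 for Vdac2 and -0.05 to 0.19 for Vdac3 in P versus NC. Scaled to total reads, Vdac3 was called higher there (0.18, limma adjusted p = 0.0171).

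**Figure D2:**
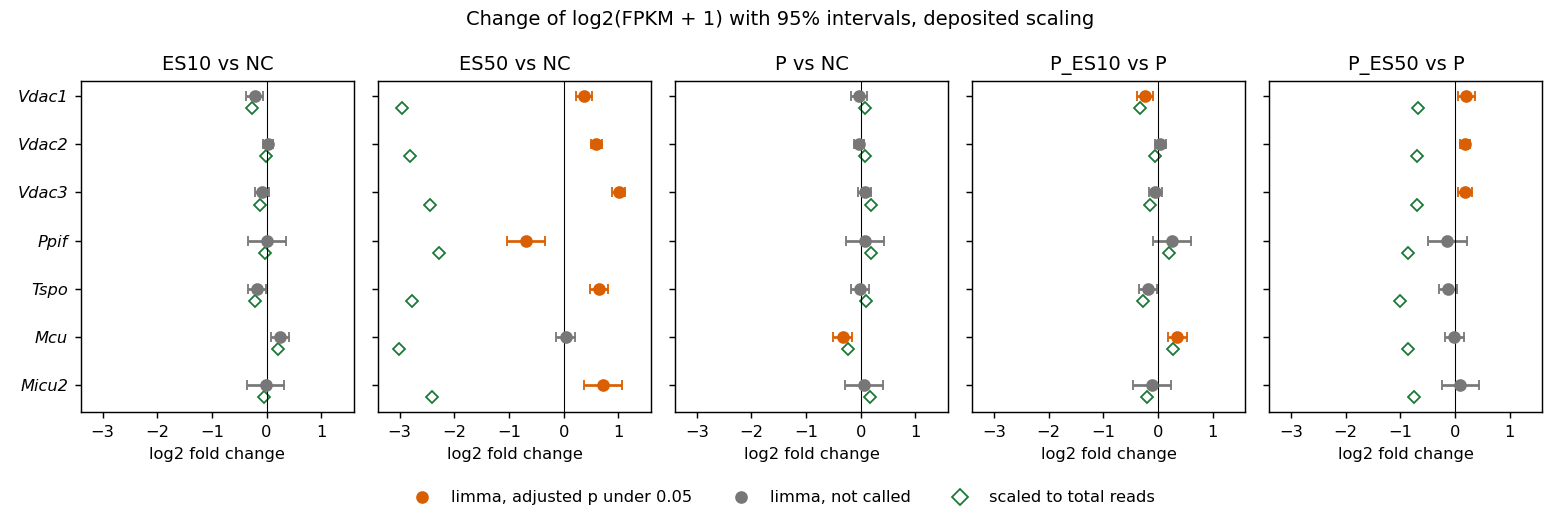
Log2 fold change of FPKM + 1 for the 7 genes in 5 comparisons, with 95% intervals from limma (filled circles, orange where called) and the same change when scaled to total reads (open diamonds). In ES50 versus NC the circles lie on both sides of 0 (1.01 for Vdac3, -0.69 for Ppif) while all diamonds lie below it.

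The response to 50 pulses was compared between PE-treated and other cells through the interaction, the change with PE minus that without. It was -0.82 ± 0.08 for Vdac3 (limma adjusted p = 3.89e-07) and -0.42 ± 0.07 for Vdac2 (adjusted p = 5.82e-05), and -0.17 ± 0.10 for Vdac1 (adjusted p = 0.155). Called members numbered 4 of 7, all lower, against 59% of all tested genes called in that interaction, 31.1% higher and 27.9% lower. When scaled to total reads, Vdac1, Vdac2 and Vdac3 were at 2.28, 2.11 and 1.74 there. For 10 pulses the interaction was called for 0 of 7 members (0 at an unadjusted p under 0.05, and 0 with limma's voom weights), against 0.906% of all tested genes (0.562% higher and 0.344% lower). The interaction of 10 pulses had 95% intervals of -0.23 to 0.20 for Vdac1, -0.12 to 0.16 for Vdac2 and -0.13 to 0.21 for Vdac3.

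The number of pulses was compared directly as well, in comparisons that share the 50-pulse libraries with those above. In ES50 versus ES10 all 7 members were called, 5 higher and 2 lower, against 74.3% of all tested genes, 33% higher and 41.3% lower. With only the compared groups in the fit and with voom weights 6 were called, without Mcu (adjusted p = 0.150 and 0.135), and after quantile normalization 6, without Ppif (0.0719). Vdac3 was at 1.09 ± 0.06, Vdac1 at 0.60 ± 0.07 and Vdac2 at 0.57 ± 0.05, with limma adjusted p-values of 9.12e-11, 1.37e-06 and 1.84e-08, and at -2.32, -2.69 and -2.80 when scaled to total reads. In P_ES50 versus P_ES10, 3 members were higher and 1 lower, against 23.4% of all tested genes, 10.5% higher and 12.9% lower. The order differed there, with Vdac1 at 0.44 ± 0.07, Vdac3 at 0.23 ± 0.06 and Vdac2 at 0.14 ± 0.05 (limma adjusted p = 2.74e-04, 0.00819 and 0.0432), and all 3 below 0 when scaled to total reads (-0.34, -0.57 and -0.66). The call of Vdac2 was lost after quantile normalization (adjusted p = 0.0670), with a replicate block (0.0649) and without any one of 5 of the 6 libraries (0.0539 to 0.134). Ppif was not called in P_ES50 versus P_ES10 (-0.40 ± 0.16, limma adjusted p = 0.0972), although the libraries did not overlap. It was called lower with voom weights (adjusted p = 0.0226) and without the ES50 libraries (0.0076).

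Ratios within a library do not depend on the scaling between libraries. Here the ratios of Vdac1 and Vdac2 to Vdac3 differed most in ES50 versus NC, but VDAC ratios also separated in other comparisons. Vdac3 held 47.9 ± 2.82% of the summed VDAC FPKM in ES50 and 39.4 ± 1.34% in NC, while Vdac1 held 19.3 ± 0.525% in ES50 and 24.7 ± 1.52% in NC (SD, n = 3 each). The log2 ratio of Vdac1 to Vdac3 was -1.44, -1.20 and -1.28 in ES50, against -0.72, -0.78 and -0.52 in NC. The groups were apart by -0.63, with an exact two-sided permutation p of 0.1, the smallest that 3 against 3 libraries allow (0.182 after Benjamini-Hochberg adjustment over the 20 ratio comparisons). The ratio of Vdac2 to Vdac3 was also lower in each ES50 library than in any NC library (difference -0.41, exact permutation p = 0.1). In PE-treated cells the same ratios differed by 0.03 and -0.00055 between P_ES50 and P, with overlapping libraries. The ratio of Vdac1 to Vdac3 was lower in each P_ES10 library than in any P library (-0.20). That of Vdac2 to Vdac3 was apart in P versus NC (-0.10) and in P_ES10 versus P (0.09). Each of these 3 had an exact permutation p of 0.1. Of the 20 ratio comparisons, those of Mcu to Micu2 included, 11 had no overlap. How often ratios of other gene pairs separate in these comparisons was not computed, so the count is a description only. After 10 pulses the ratio of Vdac1 to Vdac2 was -0.83, -0.88 and -0.78 in P_ES10, against -0.60, -0.56 and -0.46 in P (difference -0.29, exact permutation p = 0.1). Without PE it was -0.89, -0.89 and -0.60 in ES10, against -0.55, -0.63 and -0.44 in NC, where ES10 replicate 3 overlapped the NC libraries (-0.25, exact permutation p = 0.2).

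**Figure D3:**
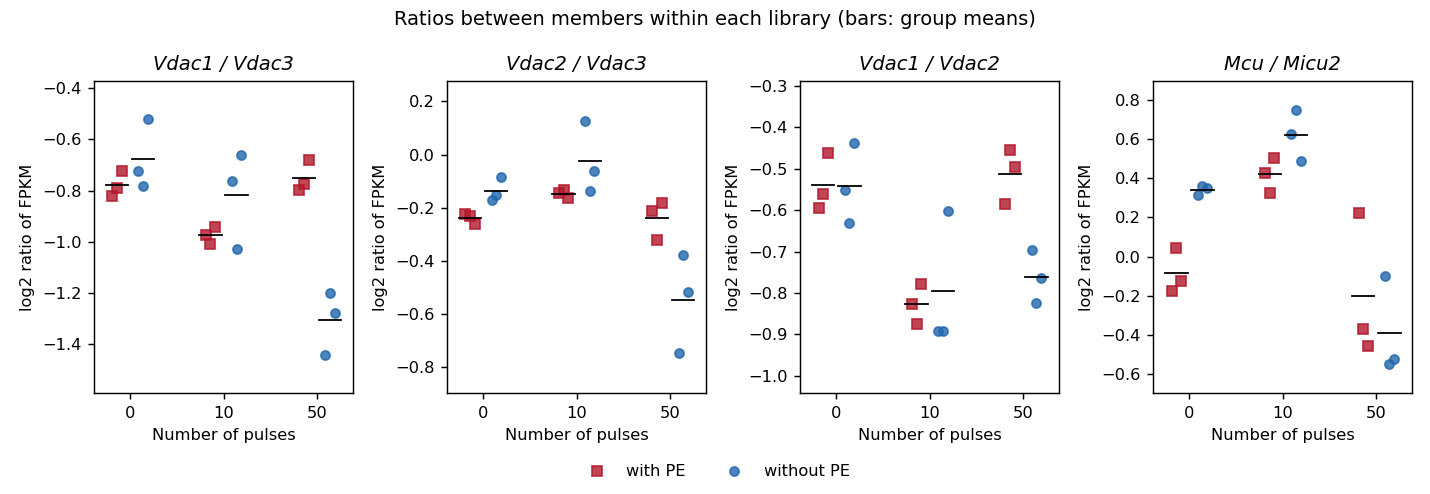
Log2 ratios of FPKM between members within each library, against the number of pulses, with PE (squares) and without (circles). Bars are means of 3 libraries. At 50 pulses without PE the ratios of Vdac1 and Vdac2 to Vdac3 average -1.31 and -0.55, below the libraries with 0 pulses, and the ratio of Mcu to Micu2 is highest at 10 pulses in both series.

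Tspo and Ppif, the other 2 members tied to the outer membrane and the permeability transition, went in opposite directions after 50 pulses without PE on the deposited scale. Tspo (ENSRNOG00000010549, chromosome 7, 124460358 to 124470609) had 65.5, 66.1 and 83.2 FPKM in ES50, against 42.2, 47.3 and 46.1 FPKM in NC. The groups were apart, with ES50 replicate 3 the highest, and the log2 change was 0.65 ± 0.08 (limma adjusted p = 1.80e-06), or -2.77 when scaled to total reads. In PE-treated cells Tspo had 41.5, 40.7 and 40.4 FPKM in P_ES50, against 46.2, 43.7 and 43.9 FPKM in P, a change of -0.12 ± 0.08 (adjusted p = 0.271). The interaction was -0.77 ± 0.11 (adjusted p = 2.01e-05), but 1.76 when scaled to total reads. After 10 pulses Tspo had 37.6, 42.1 and 39.8 FPKM in ES10, against 42.2, 47.3 and 46.1 FPKM in NC, and 41.5, 38.2 and 38.1 FPKM in P_ES10, against 46.2, 43.7 and 43.9 FPKM in P. The pulsed libraries lay below the others in both pairs, by -0.18 ± 0.08 each (limma adjusted p = 0.202 and 0.112). Both were called in a fit without the 3 ES50 libraries (adjusted p = 0.0244 and 0.0121) and with scaling to nuclear reads (0.0400 and 0.0227). They were also called after quantile normalization (0.0386 and 0.0284) and with voom weights (0.0320 and 0.0183). Only P_ES10 versus P was called with total reads (0.0206) and with just the compared groups (0.0189). Neither was called with the other pseudocount, without the filter or with a replicate block. PE alone gave -0.02 ± 0.08 in P versus NC (adjusted p = 0.935).

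Ppif (ENSRNOG00000010558, chromosome 16, 1979191 to 1985908) had 2.43, 1.03 and 1.15 FPKM in ES50, on 8, 4 and 4 reads, against 2.92, 3.31 and 2.69 FPKM in NC, on 98, 130 and 97 reads. Every ES50 library was below every NC library, and the log2 change was -0.69 ± 0.16 (limma adjusted p = 0.00156). It was -0.31 and not called after quantile normalization (adjusted p = 0.0766). With 4 to 8 reads per ES50 library the size of this change is poorly determined. With PE, Ppif had 2.70, 3.33 and 2.38 FPKM in P_ES50, against 3.20, 3.48 and 2.87 FPKM in P, with overlap (-0.14 ± 0.16, adjusted p = 0.583). The interaction was 0.54 ± 0.23 (adjusted p = 0.0560), and 0.78 with an adjusted p of 6.23e-04 without ES50 replicate 1, the library with 8 reads. After 10 pulses it had 3.67, 3.73 and 4.65 FPKM in P_ES10, all above the 3.20, 3.48 and 2.87 FPKM in P (0.26 ± 0.16, adjusted p = 0.301), whereas ES10 and NC overlapped, at 3.17, 2.89 and 2.87 FPKM in ES10 (0.0041 ± 0.16, 95% interval -0.35 to 0.36).

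The uniporter pore gene Mcu was lower with PE alone and, in PE-treated cells, higher after 10 pulses, while no change against unpulsed cells was called after 50. Mcu (ENSRNOG00000045920, chromosome 20, 29038480 to 29199224) had 10.9, 12.3 and 11.5 FPKM in P, against 14.5, 14.7 and 15.3 FPKM in NC. The groups did not overlap, and the log2 change was -0.33 ± 0.08 (limma adjusted p = 0.0170). On the deposited scale Mcu was the only member called in P versus NC, against 9.53% of all tested genes, 4.72% higher and 4.81% lower. The call was lost without NC replicate 3, P replicate 1 or P replicate 3 (adjusted p = 0.0674, 0.0803 and 0.0526). The mitochondrial genome's share of reads was lower in P than in NC as well, at 5.48% and 12.9%. The summed FPKM of the 9 cardiomyocyte markers (3 of 9 above 1 FPKM in NC) was 10.6 to 11.1 in P and 15.3 to 17.1 in NC, and that of the 5 skeletal muscle markers (3 of 5) was 34.4 to 39.6 in P and 51.1 to 52.9 in NC, while the fibroblast sum was 2574 to 2722 in P and 2378 to 2464 in NC. The part of these shifts in the result was not tested.

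Mcu rose after 10 pulses in PE-treated cells, where it had 15.2, 14.7 and 15.3 FPKM in P_ES10, against 10.9, 12.3 and 11.5 FPKM in P (0.36 ± 0.08, limma adjusted p = 0.00453). Together with Vdac1 it made 1 member higher and 1 lower in P_ES10 versus P, against 22.9% of all tested genes, 13.2% higher and 9.66% lower. The comparisons P versus NC and P_ES10 versus P share the 3 P libraries. Mcu averaged 11.6 FPKM in P, 15.1 in P_ES10 and 14.8 in NC. Without PE, Mcu had 18.04, 17.2 and 18.1 FPKM in ES10, against 14.5, 14.7 and 15.3 FPKM in NC. These groups did not overlap either, at 0.25 ± 0.08 with an adjusted p of 0.0762. The change was called with only the 6 libraries compared in the fit (adjusted p = 0.00731), without the ES50 libraries (0.0030) and with voom weights on recovered reads (0.0019). In ES10 versus NC the main model thus called 0 of 7 members, against 8.57% of all tested genes (6.36% higher and 2.21% lower), with 3 members at an unadjusted p under 0.05 (Mcu higher, Vdac1 and Tspo lower) and the same number called with voom weights. The interaction of PE and 10 pulses was 0.11 ± 0.11 for Mcu (adjusted p = 0.952). The summed FPKM of the skeletal muscle markers moved the same way, at 72.3 to 73.7 in P_ES10 and 34.4 to 39.6 in P, and at 77.6 to 81.9 in ES10 and 51.1 to 52.9 in NC. The cardiomyocyte sum was 13.2 to 14.8 in P_ES10, above the 10.6 to 11.1 in P, and 14.8 to 18.3 in ES10, overlapping NC. In P_ES10 versus P the fibroblast sum was also higher, at 2872 to 3215 and 2574 to 2722, as was the smooth muscle sum, at 2400 to 2448 and 2121 to 2218. The part of these marker levels was not tested.

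After 50 pulses the deposited Mcu levels overlapped those of unpulsed cells. Mcu had 13.4, 14.6 and 17.9 FPKM in ES50, against 14.5, 14.7 and 15.3 FPKM in NC (0.03 ± 0.08, adjusted p = 0.714), and 12.2, 10.8 and 11.4 FPKM in P_ES50, against 10.9, 12.3 and 11.5 FPKM in P (-0.01 ± 0.08, limma adjusted p = 0.937). The 95% intervals were -0.14 to 0.21 and -0.18 to 0.16, and scaling to total reads gave -3.01 and -0.86. Relative to 10 pulses it fell with PE, by 0.37 on the log2 scale in P_ES50 versus P_ES10 (SE 0.08, limma adjusted p = 0.00355). In ES50 versus ES10 the change was -0.21 ± 0.08 (adjusted p = 0.0265) with overlapping libraries, and this call was lost without ES10 replicate 1 or 3 or ES50 replicate 1 or 2, the change being -0.13 without ES50 replicate 1.

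Micu2, which encodes a calcium-sensing subunit of the gate of the uniporter, rose after 50 pulses without PE on the deposited scale. Micu2 (ENSRNOG00000011168, chromosome 15, 38191490 to 38276159) had 14.4, 21.3 and 25.7 FPKM in ES50, on 75, 132 and 142 reads, against 11.7, 11.5 and 12.02 FPKM in NC. The ES50 libraries were spread widely but all lay above NC, at 0.72 ± 0.16 (limma adjusted p = 8.33e-04), or -2.40 when scaled to total reads. With PE it had 10.5, 13.96 and 15.5 FPKM in P_ES50, on both sides of the 12.3, 11.96 and 12.5 FPKM in P (0.10 ± 0.16, adjusted p = 0.716). The interaction was -0.63 ± 0.23 (adjusted p = 0.0269, but 1.65 when scaled to total reads). It was not called without 1 of 5 libraries (NC 2, ES50 2, ES50 3, P 3 or P_ES50 1, adjusted p = 0.0502 to 0.0765), without the filter on low values (0.0540) or with only the 4 groups concerned in the fit (0.0594). After 10 pulses Micu2 had 11.7, 10.3 and 12.9 FPKM in ES10, overlapping NC, and 11.3, 11.8 and 10.8 FPKM in P_ES10, all narrowly below P. Neither 10 pulses nor PE alone gave a call, with 95% intervals of -0.36 to 0.33 in ES10 versus NC, -0.45 to 0.23 in P_ES10 versus P and -0.28 to 0.40 in P versus NC. The model shares 1 spread per gene over all groups, so these intervals also carry the spread of the 50-pulse libraries. The SD of Micu2 was 5.72 FPKM in ES50 and 2.61 in P_ES50, against 0.270 to 1.30 in the other groups. The SE and adjusted p of Micu2 in ES50 versus NC thus rest on less spread than its ES50 libraries showed.

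The ratio of the pore gene Mcu to the gate gene Micu2 stood apart with PE and with 10 pulses. The log2 ratio of Mcu to Micu2 was -0.17, 0.04 and -0.12 in P, against 0.32, 0.36 and 0.35 in NC, a difference of -0.42. It was 0.43, 0.33 and 0.51 in P_ES10, all above P (0.50), and 0.62, 0.75 and 0.49 in ES10, all above NC (0.28). In ES50 it was -0.10, -0.55 and -0.52, all below NC (-0.73). Each of these 4 differences had an exact two-sided permutation p of 0.1, the smallest possible. Ratios of other gene pairs were not computed, so the separation is not shown to be particular to this pair. P_ES50 overlapped P (-0.11, exact permutation p = 0.6). These comparisons share the NC or the P libraries, and the mean log2 ratio was 0.42 in P_ES10 and 0.34 in NC.

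Among 5 tested genes of the uniporter complex and its regulators beside the members, Smdt1 stood out by its size of change. Smdt1 encodes EMRE, a small subunit that the pore needs to conduct calcium. It averaged 269.9 ± 12.95 FPKM in ES50 and 97.7 ± 2.46 FPKM in NC (1.46 ± 0.07, limma adjusted p = 8.60e-11, or -2.05 when scaled to total reads), and 128 ± 15.3 FPKM in P_ES50 and 83.9 ± 3.14 FPKM in P (0.60 ± 0.07, adjusted p = 2.99e-05, or -0.30). Micu3, a further gate gene, was lower in ES50 than in NC at -0.75 ± 0.20 on 20 reads, and Mcur1, a uniporter regulator, at -0.58 ± 0.16 on 17 reads (limma adjusted p = 0.00344 and 0.00403). The list thus had 1 higher and 2 lower of 5 in ES50 versus NC, with a median of 0.03 against -0.13 for all tested genes, of which 31.9% were higher and 40.1% lower. In P_ES50 versus P it had 1 higher and 0 lower, against 14.1% and 14.2% of all tested genes. When scaled to total reads these were 0 higher and 5 lower, and 0 and 4. After 10 pulses it had 1 higher of 5, Smdt1 at 0.26 ± 0.07, in P_ES10 versus P (0 under each of the 3 other scalings, against 13.2% of all tested genes higher as deposited), and in ES10 versus NC its smallest limma adjusted p was 0.195, also for Smdt1 (0.17 ± 0.07).

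**Figure D4:**
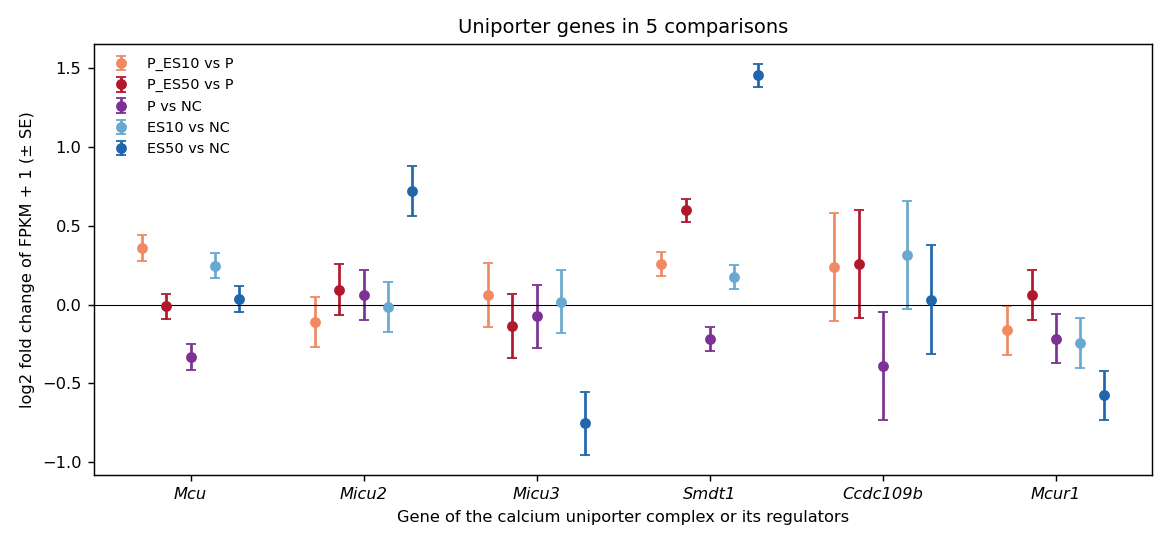
Log2 fold change of FPKM + 1 (± SE) of Mcu, Micu2 and 4 other genes of the uniporter complex or its regulators in 5 comparisons. Smdt1 is the highest point at 1.46 in ES50 versus NC, and Mcu lies below 0 with PE alone (-0.33) and above 0 with 10 pulses (0.25 and 0.36).

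Other mitochondrial calcium transport genes went mostly downward in ES50. Of 8 tested, 1 was higher and 6 lower, with a median of -0.65 against -0.13 for all tested genes, of which 31.9% were higher and 40.1% lower. Slc8b1, which encodes the mitochondrial sodium-calcium exchanger, was at -3.78 ± 0.07 on 12 reads over the ES50 libraries, and Afg3l2, a subunit of the protease that removes unassembled EMRE, at -1.55 ± 0.09 (limma adjusted p = 4.61e-16 and 2.23e-10). In P_ES50 versus P, 2 were higher and 1 lower of 8: Slc25a25, a calcium-regulated ATP-magnesium carrier, at 0.85 ± 0.07, Ghitm, a calcium-proton antiporter gene, at 0.48 ± 0.04 (-0.41 when scaled to total reads) and Slc8b1 at -0.64 ± 0.07. Of all tested genes 14.1% were higher and 14.2% lower there. Total-read scaling gave 0 higher and 7 lower of the 8. With PE alone Slc8b1 was at 0.51 ± 0.07 and Ghitm at -0.26 ± 0.04, and 1 was higher and 2 lower of 8, against 4.72% and 4.81% of all tested genes. Total-read scaling gave 2 higher and 0 lower there, so the split depends on the scaling. After 10 pulses 3 were higher and 0 lower in ES10 versus NC, among them Ghitm at 0.15 ± 0.04 (0 higher with scaling to nuclear reads, 1 after quantile normalization), against 6.36% and 2.21% of all tested genes. In P_ES10 versus P 3 were higher and 1 lower, against 13.2% and 9.66% of all tested genes, but 1 and 2 with scaling to total reads and 2 and 1 with scaling to nuclear reads or after quantile normalization.

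Genes tied to the permeability transition and ADP/ATP exchange were mostly higher after 50 pulses on the deposited scale. In ES50 versus NC 9 were higher and 1 lower of 11, with a median of 1.02 against -0.13 for all tested genes, of which 31.9% were higher and 40.1% lower. In P_ES50 versus P 9 were higher and 0 lower, with a median of 0.30 against -0.0073 for all tested genes, of which 14.1% were higher and 14.2% lower. After quantile normalization the counts were 7 and 2 in ES50 versus NC and 6 and 1 in P_ES50 versus P. Scaled to total reads, those medians were -2.46 and -0.57, with all 11 lower in both. Slc25a4, an ADP/ATP translocase, was at 1.06 ± 0.04 and the ATP synthase c-subunit genes Atp5g1 and Atp5g2 at 1.23 ± 0.06 and 1.15 ± 0.05 in ES50, against -2.46, -2.27 and -2.37 when scaled to total reads. For comparison, all 55 nuclear respiratory chain genes tested were higher in ES50 versus NC on the deposited scale, with a median of 1.00 (0.56 after quantile normalization, with 43 higher and 2 lower, and -2.43 when scaled to total reads). Of the VDAC genes only Vdac3, at 1.01, came near that median.

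Of 12 genes of proteins that meet VDAC at the outer membrane, 3 were higher and 6 lower in ES50 versus NC, near the 31.9% and 40.1% of all tested genes. Their median was -0.49, against -0.13 for all tested genes. Total-read scaling gave 0 higher and 12 lower, with a median of -3.11. The hexokinase genes Hk2 and Hk1, whose products bind VDAC, were at -2.47 ± 0.06 and -1.09 ± 0.05, and Itpr3, a calcium release channel of the ER that is tethered to VDAC, at -2.51 ± 0.05. After 10 pulses both hexokinase genes were higher, Hk2 at 0.49 ± 0.06 and Hk1 at 0.29 ± 0.05 in ES10 versus NC, and Hk2 at 0.55 ± 0.06 and Hk1 at 0.32 ± 0.05 in P_ES10 versus P (limma adjusted p = 1.10e-04, 0.00303, 1.09e-05 and 4.52e-04), and both were above 0 there under each of the 3 other scalings. Of the 12 genes 2 were higher and 0 lower in ES10 versus NC, against 6.36% and 2.21% of all tested genes, and 5 were higher and 2 lower in P_ES10 versus P, against 13.2% and 9.66%. With PE alone 0 were higher and 4 lower, Hk2 at -0.28 ± 0.06 among them, against 4.72% and 4.81% of all tested genes, and in P_ES50 versus P 4 were higher and 0 lower, against 14.1% and 14.2% (median 0.13, or -0.64 with 0 higher and 12 lower when scaled to total reads).

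Of 7 genes of TSPO partners and cholesterol delivery, 2 were higher and 4 lower in ES50 versus NC, against 31.9% and 40.1% of all tested genes, and 0 and 7 when scaled to total reads. Dbi, which encodes a TSPO ligand, was at 1.11 ± 0.09 (-2.32 when scaled to total reads), and Fdxr, a reductase gene of steroid synthesis, at -0.91 ± 0.10. Their smallest limma adjusted p was 0.114 in P_ES50 versus P (Dbi at 0.20 ± 0.09). Of 13 other cyclophilin genes 3 were higher and 6 lower in ES50 versus NC, close to the same shares of all tested genes, and 0 and 13 when scaled to total reads. The smallest limma adjusted p among them (8.77e-12) was that of the cytosolic isomerase gene Ppia at 0.97 ± 0.04. Ppia was at -0.27 after quantile normalization and -2.57 when scaled to total reads. Ppil3 rose more on the deposited scale, at 1.55 ± 0.13. Ranbp2, a nuclear pore gene, was at -1.02 ± 0.07, and Nktr at -1.86 ± 0.19.

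The genes most like each member over the 18 libraries were found by Pearson's r of log2(FPKM + 1), as a description in which the libraries share the 6 groups and their treatments. They were Eid1 (0.987) and Mea1 (0.984) for Vdac2, and R3hcc1 (0.99), Mrps12 (0.986) and Mpp6 (0.985) for Vdac3. For Vdac1 they were Farsb (0.952), Jdp2 (0.93) and Mxi1 (0.925), and for Tspo Rnf26, Polr2e and Sh3glb2 (0.971 to 0.972). Micu2 had Ubl4a (0.948), B3gat3 (0.932) and Fkbp3 (0.932), Ppif had Dtx2 (0.93), Art3 (0.929) and Mir3554 (0.925), and Mcu had Sh3bp5l (0.917), Eya1 (0.891) and Dhcr7 (0.885). Among the members themselves r was 0.942 between Vdac2 and Vdac3, 0.818 between Vdac1 and Vdac3 and 0.783 between Vdac1 and Vdac2. It was between -0.281 and 0.143 for Mcu with the other 6, and between -0.871 and -0.159 for Ppif.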

How the data were processed

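Poly(A) RNA of H9C2 cells was sequenced in 18 libraries, 3 in each of 6 groups, with groups and replicate numbers from the sample titles. The deposited values are FPKM per gene on build Rnor 6.0, per the submitters' processing notes. The aligner, the counter, the annotation release, the strandedness and the time from pulses to harvest are details not given in the sources used here. Multiplied by gene length, 100% of the values above 0 were whole multiples of what 1 read is worth in their library (tolerance 0.01 of a read), and reads were recovered on this basis. Low read numbers and floors of 3 reads cover counting error only.

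Genes with at least 1 FPKM in at least 3 libraries (11917) entered limma 3.58.1 in R 4.3.3 on the log2(FPKM + 1) scale, with a trended empirical Bayes step and 6 group means over all 18 libraries. This scale understates changes of low genes such as Ppif. The spread of a gene was estimated over all 6 groups together, so intervals between other groups also carry the spread of the ES50 libraries. Where ES50 libraries varied most, as for Micu2 and Ppif, the SE and p-values of ES50 comparisons understate that spread. With only the compared groups in the fit, the 6 members called in ES50 versus NC stayed called. P-values were adjusted by Benjamini-Hochberg over all genes within each of 9 comparisons. The 20 ratio comparisons used exact permutation tests (scipy 1.17.1). Other tools were the R package data.table (version 1.17.8), Python 3.11.15, pandas 2.3.3, numpy 2.4.6 and matplotlib 3.10.9. The fit was tested on simulated data.

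The members and the 7 gene lists were chosen with earlier results of these data known. From a list, at most 4 genes per comparison were eligible to be named, those with the smallest adjusted p; like genes are the 3 with the highest r. A like gene of Vdac2 and the single values of 1 tested gene of the uniporter list are not reported here. No column was left out. Alternatives covered the pseudocount, the filter, 3 other scalings, the libraries in the fit, a replicate block, voom weights and each library left out. Same-numbered libraries deviated from their group means with correlations of -0.0879 to 0.101. The main model did not pair them, and such weak correlations cannot show whether the numbers stand for shared cultures or batches.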

Additional observations from a re-analysis of the deposited data

Results flagged for a closer look

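A set of 4 members responded to 50 pulses differently with PE than without, by the interaction in limma's model of all 18 libraries (the change with PE minus that without). It was -0.82 for Vdac3, -0.77 for Tspo, -0.63 for Micu2 and -0.42 for Vdac2, on the deposited scale. Among all tested genes 27.9% were called lower in the same interaction and 31.1% higher. The share of reads on the mitochondrial genome moved with it, at 48.6% in P_ES50 and 5.48% in P, against 92.1% in ES50 and 12.9% in NC, and its part was not tested. No group is large enough for a check for single outlying libraries.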

How the results depend on the processing

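Of 546 values of single members under alternative settings other than leaving out 1 library (63 results), 457 kept their direction and their side of the threshold, 13 kept the direction but lost the call, 31 gained one and 45 changed sign, 34 of these with scaling to total reads. Of 462 further values with 1 library left out, 402 kept both, 32 lost the call, 3 gained one and 25 changed sign. That scaling counts the mitochondrial genome's reads, which by its construction lowers every nuclear gene in the 50-pulse libraries. It gave, in ES50 versus NC, -2.95, -2.81, -2.44, -2.77, -3.01 and -2.40 for Vdac1, Vdac2, Vdac3, Tspo, Mcu and Micu2. In ES50 versus ES10 it gave -2.69, -2.80, -2.32, -2.55 and -2.35 for Vdac1, Vdac2, Vdac3, Tspo and Micu2. In P_ES50 versus P it gave -0.67, -0.70, -0.70 and -0.75 for Vdac1, Vdac2, Vdac3 and Micu2, and in P_ES50 versus P_ES10 -0.34, -0.66, -0.57, -0.73 and -0.55 for Vdac1, Vdac2, Vdac3, Tspo and Micu2. The interaction of PE and 50 pulses was 2.28, 2.11, 1.74, 1.76, 2.16 and 1.65 for Vdac1, Vdac2, Vdac3, Tspo, Mcu and Micu2. Uncalled changes near 0 also changed sign with it: Vdac2 (-0.011) and Ppif (-0.027) in ES10 versus NC, Vdac1 (0.080), Vdac2 (0.079) and Tspo (0.093) in P versus NC, Vdac2 (-0.046) in P_ES10 versus P, and Vdac2 (-0.035) and Vdac3 (-0.017) in the interaction of PE and 10 pulses. Scaling to nuclear reads did so for Vdac2 (-0.067) and Ppif (-0.076) in ES10 versus NC, Mcu (-0.036) in ES50 versus NC, Vdac2 (-0.031) in P_ES10 versus P, Vdac1 (0.0028) and Tspo (0.014) in the interaction with 10 pulses and Mcu (0.0036) in that with 50. Quantile normalization did so for Vdac2 in ES10 versus NC (-0.050) and P_ES10 versus P (-0.0051) and for Tspo in the interaction with 10 pulses (0.023, or 0.0024 with voom weights). The cause was not tested.

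The number of members called in ES10 versus NC, 0 of 7 as reported, was 1 with scaling to total reads, 2 with scaling to nuclear reads, 2 with quantile normalization, 1 with only the compared groups, 3 with voom weights and 3 without the ES50 libraries, an alternative chosen after seeing the data. Scaling to total reads gave 2 in P versus NC, 4 in P_ES10 versus P, 7 in P_ES50 versus P, 7 in P_ES50 versus P_ES10 and 7 in the interaction with 50 pulses, and quantile normalization gave 0 in P_ES50 versus P. The replicate block, which pairs libraries by a shared number only, called 1 member in ES10 versus NC and 909 genes in all, against 1021 without it, and changed 1 other member call, that of Vdac2 in P_ES50 versus P_ES10 (adjusted p = 0.0649).

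Leaving out each library in turn gave 0 to 1 members called in ES10 versus NC and in P versus NC, and 1 to 2 in P_ES10 versus P and in P_ES50 versus P. Changes that crossed 0 ranged from -0.048 to 0.064 for Ppif and -0.086 to 0.064 for Micu2 in ES10 versus NC, -0.077 to 0.12 for Mcu in ES50 versus NC, -0.066 to 0.015 for Tspo in P versus NC, and -0.055 to 0.031 for Mcu and -0.017 to 0.25 for Micu2 in P_ES50 versus P. In the interaction with 10 pulses they ranged from -0.090 to 0.084 for Vdac1, -0.011 to 0.043 for Vdac2, -0.013 to 0.082 for Vdac3 and -0.043 to 0.044 for Tspo, and in that with 50 from -0.13 to 0.065 for Mcu. Log2 ratios that crossed 0 were those of Vdac1 to Vdac3 (-0.0086 to 0.055), Vdac2 to Vdac3 (-0.028 to 0.041), Vdac1 to Vdac2 (-0.00081 to 0.067) and Mcu to Micu2 (-0.33 to 0.013) in P_ES50 versus P, and Vdac1 to Vdac2 in P versus NC (-0.045 to 0.052). In the interaction with 50 pulses 3 to 5 members were called.

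Other scalings moved the split of calls over all genes. In ES10 versus NC 758 were higher and 263 lower as deposited, 920 and 761 with total reads, 356 and 620 with nuclear reads and 699 and 534 after quantile normalization. In P versus NC 563 and 573 became 2431 and 558 with total reads. In P_ES10 versus P 1573 and 1151 became 1521 and 2875 with total and 1077 and 1672 with nuclear reads. In ES50 versus ES10 3932 and 4921 became 36 and 11479, and in P_ES50 versus P_ES10 1249 and 1535 became 55 and 10348 with total and 1650 and 1196 with nuclear reads. The interaction with 10 pulses gave 67 and 41, against 94 and 171, and that with 50 gave 3706 and 3330, against 10572 and 19 with total reads. The number of genes called in ES10 versus NC, 1021 as reported, was 2246 with only the compared groups, 2834 with voom weights, 2574 without the ES50 libraries and as low as 580 with 1 library left out. In P versus NC, 1136 became 2724, 3533, 3200 and as low as 626, and in P_ES10 versus P 2724 became 4708, 5090 and 4716 under the first 3 of these. Without the ES50 libraries 5382 were called in P_ES50 versus P, against 3370, and 4824 (4415 with voom weights) in P_ES50 versus P_ES10, against 2784. The interaction with 10 pulses had 108 calls, against 693, 788, 561 and as low as 61. Depth limits the ES50 values most, above all Ppif on 4 to 8 reads a library.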
